A study of Drosophila melanogaster with 6 samples.

Results

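The enzymes described here remove superoxide and peroxides in *Drosophila melanogaster*, and comprise the peroxiredoxins *Prx2540-1*, *Prx2540-2*, *Prx6005*, *Jafrac1*, *Jafrac2*, *Prx3* and *Prx5*, the catalase *Cat* and the superoxide dismutases *Sod1* and *Sod2*. These 10 of the 13858 genes in the expression table were taken by symbol, ignoring case, and not by a measured value. The list itself was chosen with earlier results of these data known. *Prx2540-1* and *Prx2540-2* are neighbouring copies with very similar coding sequences, between which the assignment of reads is uncertain, hence their values were summed and 9 quantities were tested.

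RNA was sequenced from whole female larvae at 96 h, an age counted from hatching in the series description and from egg laying in the study's methods. In the knockdown group (n = 3, replicates 1, 2 and 3), *Act5C*-GAL4, an actin promoter driver active throughout the body, activated the transgene UAS-*Dctn1*-RNAI, which targets the dynactin subunit *Dctn1*. The control group (n = 3, replicates 2, 3 and 4) is labelled Actin control and was a driver only control per the study's methods, and *w1118* served as the wild-type strain. All larvae fed on grape agar with yeast, and each library was a pool of 12 to 15 larvae from 1 RNAi line or its control. The p-values therefore measure the spread between pools. Abundance was given as FPKM, a fragment count scaled by transcript length and by library size, so that genes can be compared with each other per unit length.

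Superoxide dismutases convert superoxide to hydrogen peroxide, with Sod1 in the cytosol and Sod2 in the mitochondrial matrix. Catalase breaks down hydrogen peroxide in peroxisomes. Peroxiredoxins reduce hydrogen peroxide and organic peroxides through a reactive cysteine. Typical peroxiredoxins are recycled by thioredoxin and thioredoxin reductase, whereas in mammals the 1-Cys type is recycled with glutathione. In flies, where a classical glutathione reductase is missing, thioredoxin reductase also keeps glutathione reduced.

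The knockdown was visible in the target. *Dctn1*, listed as *DCTN1-p150*, was at 14.3 ± 1.58 FPKM in the control and 7.38 ± 0.557 FPKM in the knockdown (SD, n = 3 each), which is 51.5% of the control, and its log2 fold change was -0.94 (limma, adjusted p = 0.00735). The FPKM sums of the libraries lay between 94.2% and 107% of their mean, with all 3 control libraries above all 3 knockdown libraries. Across the 9977 genes tested, the median log2 fold change was 0.16, and rescaling the libraries by median of ratios moved it to -0.01. Fold changes below are for FPKM as deposited, on the log2(FPKM + 0.1) scale, unless given relative to the median gene.

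In the control larvae, the most abundant transcript of the group was *Cat* at 293 ± 27.8 FPKM (SD, n = 3), followed by *Sod1* at 218 ± 7.48 FPKM and *Jafrac1* at 116 ± 12.7 FPKM. The *Prx2540* sum (75.4 ± 10.6 FPKM) and *Sod2* (72.8 ± 5.92 FPKM) came next and had overlapping ranges. *Prx5* (55.6 ± 5.05 FPKM) and *Prx3* (47.9 ± 1.38 FPKM) were lower, and *Jafrac2* (17.6 ± 2.22 FPKM) and *Prx6005* (6.52 ± 1.09 FPKM) were lowest. All other neighbours in this order had ranges that did not overlap, although *Prx5* and *Prx3* were apart by only 0.56 FPKM. In the knockdown larvae *Sod1* (240 FPKM) and *Cat* (239 FPKM) were nearly level by mean, and *Cat* was the higher in knockdown replicates 1 and 3. The *Prx2540* sum moved from rank 4 to rank 8.

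**Figure D1:**
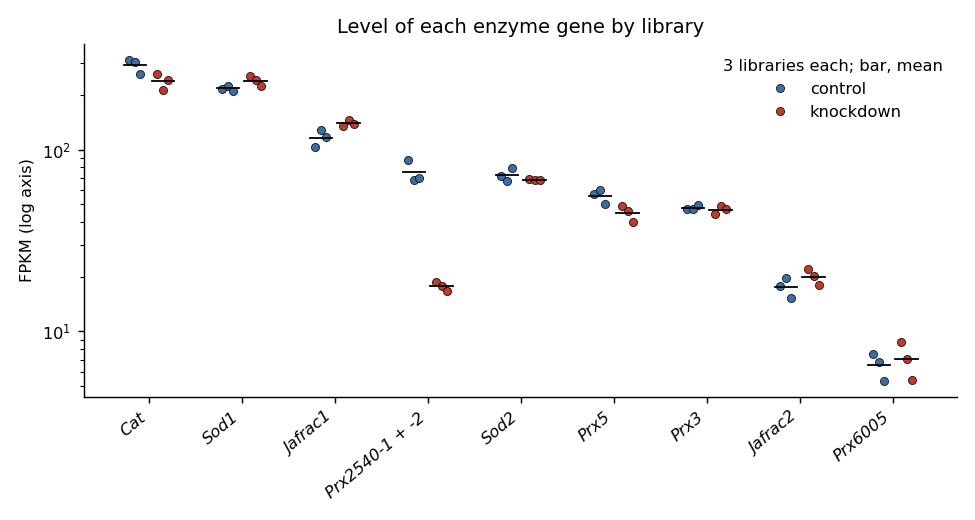
FPKM of each enzyme gene in each library on a log axis, ordered by the control mean, with 3 control (blue) and 3 knockdown (red) libraries and a bar at each mean. The *Prx2540* sum lies between 68.42 and 87.64 FPKM in the control and between 16.64 and 18.63 FPKM in the knockdown, whereas the groups of the other genes lie close together or overlap.

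A single enzyme of the group fell in the knockdown, the 1-Cys peroxiredoxin pair *Prx2540*, and none rose (limma, 1 of 9 lower and 0 of 9 higher at an adjusted p under 0.05). All 9 quantities had passed the filter on low values. Of all tested genes, 6.72% were called, 1.65% as lower and 5.06% as higher. With the additional requirement of an absolute log2 fold change above 1, by which genes are termed differentially expressed genes (DEGs) here, *Prx2540* remained the only call, while 2.91% of all tested genes were DEGs, 1.08% lower and 1.82% higher. At an unadjusted p under 0.05 there were 2, namely *Prx2540* and *Prx5*, both with lower values in the knockdown. The share of all tested genes at this unadjusted threshold was not computed, here or for the lists below. Such counts therefore have no background beside them. The median log2 fold change of the 9 quantities was -0.03 against 0.16 over all tested genes, and 7 of the 9 lay below that overall median. The groups did not overlap for *Prx2540*, *Prx5* and *Cat*, with the knockdown lower in each, and for *Jafrac1*, with the knockdown higher. Over all tested genes such separation was seen in 33.5%, in 4.65% with the knockdown lower and in 28.8% with the knockdown higher.

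**Figure D2:**
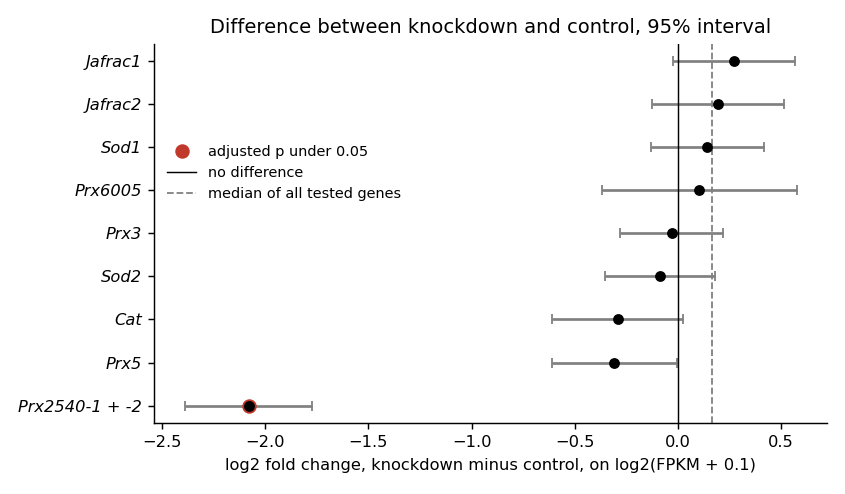
Log2 fold change of each enzyme gene between knockdown and control (points) with its 95% interval from limma (bars), with lines at 0 and at the median of all tested genes (0.16). The *Prx2540* sum at -2.08 is the only point past the adjusted p threshold, and the other 8 lie between -0.31 and 0.27.

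The summed *Prx2540* level was 87.64, 68.42 and 70.25 FPKM in control replicates 2, 3 and 4, and 18.63, 17.74 and 16.64 FPKM in knockdown replicates 1, 2 and 3. Every knockdown library was thus far below the lowest control library, and the knockdown libraries were closer to each other than the control libraries were. The mean fell from 75.4 ± 10.6 to 17.7 ± 0.997 FPKM (SD, n = 3 each), which is 23.4% of the control or 4.27-fold lower. The log2 fold change was -2.08 (SE 0.13, 95% interval -2.39 to -1.77), with an adjusted p of 0.000926 by limma, and -2.24 relative to the median gene. Of all tested genes, 0.471% had a log2 fold change as low or lower. The exact permutation test of the summed level gave p = 0.1 (two-sided), the smallest value that 3 against 3 libraries allow. Leaving out each library in turn kept the log2 fold change between -2.15 and -1.97 and the adjusted p between 0.000402 and 0.00638.

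Most of the summed signal was assigned to *Prx2540-2*. Its level was 85.22, 64.93 and 64.38 FPKM in the control against 18.52, 15.84 and 14.36 FPKM in the knockdown. On its own it fell by 2.13 on the log2 scale (SE 0.16, limma, adjusted p = 0.00147). *Prx2540-1* was listed at 2.42, 3.49 and 5.87 FPKM in the control against 0.11, 1.90 and 2.28 FPKM in the knockdown. The groups of *Prx2540-1* did not overlap either, although its 2 highest knockdown libraries came close to the lowest control library. Its log2 fold change of -1.92 had an SE of 1.08 and did not pass the test (adjusted p = 0.339). In knockdown replicate 1, where *Prx2540-1* was lowest, *Prx2540-2* was the highest of the knockdown libraries, while their sum differed little between the 3 libraries.

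The copies stand in a cluster on chromosome arm 2R. In the BDGP6.54 annotation, *Prx2540-2* (named *Prx6c* there) covers 10418718 to 10419761 and *Prx2540-1* (*Prx6b*) covers 10424436 to 10425471, both on the plus strand, with 4674 bp between them. A further copy of the same 1-Cys type, *CG12896*, follows after 1408 bp on the minus strand (10426880 to 10427915). It is not among the 10 genes, but reads may also be shared with it. *CG12896* was at 15.15, 13.61 and 8.64 FPKM in the control against 4.02, 1.38 and 1.28 FPKM in the knockdown. Its groups did not overlap, and it fell by 2.59 on the log2 scale (SE 0.47, limma, adjusted p = 0.0360). This call was lost without control replicate 2, 3 or 4 or without knockdown replicate 2 or 3, where the adjusted p reached 0.121 at most. *Prx2540-2* took between 79.2% and 82.9% of the signal of the 3 copies in every library of either group, and *Prx2540-1* between 0.486% and 12.7%. The sum of all 3 copies fell from 87.9 to 19.9 FPKM, with a log2 fold change of -2.13 (limma, adjusted p = 0.00117), close to that of the pair.

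The gene between the *Prx2540* copies fell as well. *CG11825* (10420414 to 10423650, minus strand), annotated in the deposited table with copper ion homeostasis, was at 12.49, 7.93 and 9.78 FPKM in the control against 2.26, 1.79 and 1.76 FPKM in the knockdown. The mean went from 10.1 ± 2.29 to 1.94 ± 0.280 FPKM (SD, n = 3 each), 5.20-fold lower, with a log2 fold change of -2.30 (SE 0.20, limma, adjusted p = 0.00184). *CG33474*, which lies inside *CG11825* on the opposite strand with overlapping exons and carries a peroxin annotation in the table, was listed at 0.21 to 0.38 FPKM in the control and 0.26 to 0.52 FPKM in the knockdown. It stayed under the filter and was not tested. Whether the library preparation kept the strand is not given in the sources used here, so reads of *CG33474* and *CG11825* cannot be told apart with certainty. The tested genes on either side gave log2 fold changes near the median gene. *SLO2*, before the cluster, had 0.34 (adjusted p = 0.308), and after it *RanBPM* had -0.02 (adjusted p = 0.949), *CG12895* 0.05 (adjusted p = 0.874) and *Galphao* 0.12 (adjusted p = 0.595). The neighbours were looked at after the value of *Prx2540* was known.

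**Figure D3:**
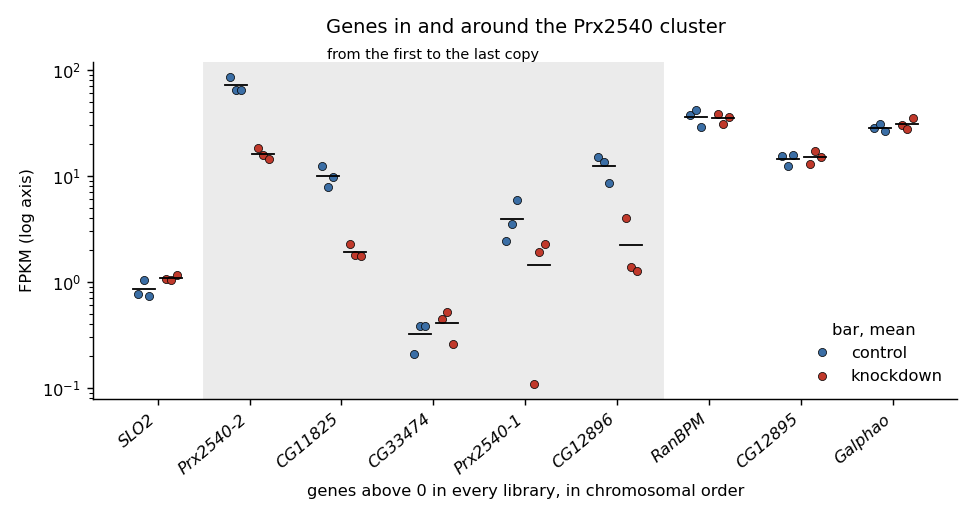
FPKM by library (log axis) of the genes above 0 in every library within and around the *Prx2540* cluster, in chromosomal order, with control in blue, knockdown in red, bars at the means and grey shading from the first to the last copy. Within the shading the control and knockdown points are apart for *Prx2540-2*, *CG11825*, *Prx2540-1* and *CG12896* and overlap for *CG33474*, and outside it they lie close together.

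*Prx6005* (*Prx6a* in the annotation, chromosome 2L, 2877091 to 2878232) is also of the 1-Cys type but lies apart from the cluster. It was at 7.46, 6.78 and 5.33 FPKM in the control against 8.78, 7.04 and 5.43 FPKM in the knockdown. The groups overlapped widely, with a log2 fold change of 0.10 (95% interval -0.37 to 0.58, limma, adjusted p = 0.785), and its sign changed under other scalings of the libraries. With *Prx6005* included, the 1-Cys peroxiredoxins together were at 82.0 ± 11.4 FPKM in the control and 24.8 ± 2.67 FPKM in the knockdown. An end of *Prx6005* overlaps 78 bp of *CG8814* on the opposite strand.

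*Jafrac1* (*Prx2* in the annotation, chromosome X, 13329824 to 13331994), the cytosolic thioredoxin peroxidase, was the most abundant peroxiredoxin. Its level was 103.18, 128.49 and 117.08 FPKM in the control against 134.96, 145.43 and 139.50 FPKM in the knockdown. The knockdown libraries were all above the control libraries, by 6.47 FPKM at the nearest point, but the difference did not pass the test (log2 fold change 0.27, SE 0.13, limma, adjusted p = 0.230). With sample weights estimated from the data it did, at 0.40 (adjusted p = 0.0349). Relative to the median gene the difference was 0.11.

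*Jafrac2* (*Prx4*, chromosome 3L, 3042359 to 3044174), which enters the secretory pathway, was at 17.78, 19.67 and 15.24 FPKM in the control against 21.98, 20.10 and 18.06 FPKM in the knockdown. The groups overlapped (log2 fold change 0.19, 95% interval -0.13 to 0.51, limma, adjusted p = 0.419). The mitochondrial peroxiredoxin *Prx3* (chromosome 3R, 17545222 to 17546531) varied least, relative to its mean, in the control libraries. Its values of 47.24, 46.94 and 49.47 FPKM in the control stood beside 44.46, 49.25 and 46.96 FPKM in the knockdown, and its log2 fold change was -0.03 (95% interval -0.28 to 0.22, adjusted p = 0.883).

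*Prx5* (chromosome 3R, 18165442 to 18167273), an atypical peroxiredoxin found in mitochondria and other compartments, was at 57.05, 59.83 and 50.03 FPKM in the control against 48.83, 46.07 and 39.93 FPKM in the knockdown. The knockdown libraries all lay below the control, but the gap was only 1.20 FPKM. Its log2 fold change of -0.31 (SE 0.13, 95% interval -0.61 to -0.004) had an unadjusted p of 0.0475 and did not pass after adjustment (limma, adjusted p = 0.192). Under median-of-ratios scaling *Prx5* was at -0.49 and came close to the threshold (limma, adjusted p = 0.0548). Without single libraries it ranged from -0.38 to -0.23 (limma, adjusted p from 0.159 to 0.390). The whole of *Prx5* (1832 bp) lies within *CG7215* on the same strand with overlapping exons, so its values are uncertain. *CG7215* was at 26.2 ± 2.46 FPKM in the control and 26.8 ± 2.99 FPKM in the knockdown.

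Leaving out the 1-Cys type, the other 4 peroxiredoxins together had 237 ± 15.6 FPKM in the control and 252 ± 8.32 FPKM in the knockdown (SD, n = 3 each), with overlapping groups. All 7 peroxiredoxins together had 319 ± 11.4 against 277 ± 9.60 FPKM, with all knockdown libraries lower (exact permutation test, two-sided p = 0.1, the smallest possible). The share of the *Prx2540* sum in the FPKM of all 10 genes was 8.36% ± 1.08 in the control and 2.14% ± 0.0628 in the knockdown.

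*Cat* (chromosome 3L, 18822604 to 18828188) was at 312.06, 305.24 and 260.91 FPKM in the control against 259.87, 213.91 and 243.42 FPKM in the knockdown. Control replicate 4 was the lowest control library and exceeded knockdown replicate 1 by only 1.04 FPKM, so the groups barely missed each other. The mean of *Cat* in the knockdown was 81.7% of the control, at 239 ± 23.3 against 293 ± 27.8 FPKM. The log2 fold change of -0.29 (SE 0.14, limma, adjusted p = 0.231) did not pass the test, and it was -0.45 relative to the median gene. Under median-of-ratios scaling it was -0.47 and did not pass (limma, adjusted p = 0.0868). With estimated sample weights it passed, at -0.38 (adjusted p = 0.0456).

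*Sod1* (chromosome 3L, 11112281 to 11113740) was at 217.35, 225.49 and 210.54 FPKM in the control against 254.71, 241.38 and 225.34 FPKM in the knockdown. Knockdown replicate 3 lay just below control replicate 3, so the groups overlapped. The log2 fold change of 0.14 (95% interval -0.13 to 0.42, adjusted p = 0.486) turned to -0.039 under median-of-ratios scaling. *Sod2* (chromosome 2R, 16772785 to 16773915) was at 72.14, 67.27 and 79.05 FPKM in the control against 69.19, 68.29 and 67.89 FPKM in the knockdown. All 3 knockdown values were inside the control range, and the log2 fold change was -0.09 (95% interval -0.35 to 0.18, limma, adjusted p = 0.673). Together the dismutases were at 291 ± 1.86 FPKM in the control and 309 ± 15.3 FPKM in the knockdown, with the nearest libraries at 292.76 and 293.23 FPKM.

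Ratios of members within a library do not depend on how the libraries are scaled. All 36 pairs were computed, and pairs that share a gene are not independent. The groups were apart in 8 of 8 pairs with the *Prx2540* sum. This restates the fall of the sum, since the other 8 quantities had log2 fold changes between -0.31 and 0.27. Among the 28 other pairs, the groups were apart in 9 and overlapped in 19. The levels of 33.5% of all tested genes did not overlap between groups, but levels, unlike ratios, depend on the scaling. The share among ratios of all genes was not computed. The ratio of the *Prx2540* sum to *Sod1* was 0.403, 0.303 and 0.334 in the control and 0.0731, 0.0735 and 0.0738 in the knockdown libraries. Its knockdown values were nearly equal and all far below the control. The ratio of *Cat* to *Sod1* was 1.44, 1.35 and 1.24 in the control and 1.02, 0.886 and 1.08 in the knockdown libraries, without overlap. *Cat* was thus above *Sod1* in every control library and below it in knockdown replicate 2, a log2 change of the ratio of -0.43 (exact permutation test, two-sided p = 0.1, the smallest possible). Without *Prx2540*, the changes furthest from 0 among the pairs with groups apart were those of *Jafrac1* to *Prx5* at 0.58 and of *Jafrac1* to *Cat* at 0.57. These ratios were chosen after their values were seen.

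Among the partners of these enzymes, 3 of the 44 tested genes in 5 lists fell and none rose (limma), 2 of glutathione synthesis and the copy *CG12896* described above. The share called was 6.82% against 6.72% of all tested genes, and the share called lower was 6.82% against 1.65%. Reads of *CG12896* may be shared with the *Prx2540* pair, so its call is not separate from theirs. With *CG12896* taken into the sum, 2 listed genes were called. The lists were also chosen with earlier results of these data known. The thioredoxin system supplies electrons to peroxiredoxins. Of its 12 listed genes 7 could be tested, and none passed (limma, 0 lower and 0 higher, 1 at an unadjusted p under 0.05), with a median log2 fold change of -0.00. The reductase *Trxr-1* had 0.31 (adjusted p = 0.204), cytosolic thioredoxin *Trx-2* 0.07 (adjusted p = 0.809), and *SelR*, which repairs oxidized methionine with thioredoxin, 0.33 (adjusted p = 0.169). The other tested genes of this list had values below 0, the lowest at -0.41 (limma, adjusted p = 0.446).

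For glutathione synthesis and peroxidase, 9 genes were listed, 7 rows were matched and 6 could be tested. Of these, 2 were lower and 0 higher, and the median log2 fold change was -0.20. *Gclc*, the catalytic subunit of glutamate-cysteine ligase that carries out the first step, was at 62.50, 59.04 and 72.78 FPKM in the control against 41.04, 45.87 and 36.16 FPKM in the knockdown. The groups were well apart, and *Gclc* fell by 0.66 on the log2 scale (SE 0.14, limma, adjusted p = 0.0345). Its modifier subunit *Gclm* had a log2 fold change of 0.22 (adjusted p = 0.377). Glutathione synthetase, the enzyme of the second step, is encoded by the neighbouring copies *CG32495* (*Gss2*) and *GSS* (*Gss1*), between which reads may be split.

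*CG32495* was at 32.42, 30.79 and 39.04 FPKM in the control against 21.85, 22.28 and 20.64 FPKM in the knockdown, and fell by 0.65 on the log2 scale (SE 0.13, adjusted p = 0.0264). *GSS* had 40.74, 35.96 and 45.83 FPKM in the control against 30.23, 30.13 and 28.17 FPKM in the knockdown, with a log2 fold change of -0.46 (adjusted p = 0.0712). Neither copy had overlapping groups. Their sum fell from 74.9 ± 9.19 to 51.1 ± 1.99 FPKM, 68.2% of the control, with a log2 fold change of -0.54 (SE 0.13, limma, adjusted p = 0.0471). The glutathione peroxidase homologue *PHGPx* was abundant, at 224 ± 6.28 and 247 ± 11.1 FPKM, and had a log2 fold change of 0.14 (adjusted p = 0.485). The calls of the partner genes rested on few libraries. Of the 3 called in all lists, 0 remained past the threshold without control replicate 2, control replicate 4, knockdown replicate 2 or knockdown replicate 3, 1 without knockdown replicate 1 and 2 without control replicate 3.

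Related dismutase, catalase and peroxidase genes and producers of oxidants formed a list of 9, of which 7 could be tested. *CG12896* was lower and none was higher, with a median log2 fold change of 0.17. Extracellular *Sod3* had -0.18 (adjusted p = 0.355), *Ccs*, the copper chaperone of Sod1, had 0.28 (adjusted p = 0.216), and the NADPH oxidase *Nox* had 0.39 (adjusted p = 0.322). Of 10 listed regulators of the stress response 9 could be tested, and none passed (limma, 0 at an unadjusted p under 0.05 as well), with a median of 0.16. Among them *cnc*, which encodes the homologue of the antioxidant transcription factor Nrf2, had 0.08 (adjusted p = 0.694) and its inhibitor *Keap1* had 0.02 (adjusted p = 0.942). All 15 genes of peroxisome biogenesis, which builds the compartment of catalase, could be tested, and none passed (limma, 2 at an unadjusted p under 0.05), with a median of 0.19. The peroxisomal transporter *Pmp70* had 0.33 (adjusted p = 0.107) and the import receptor *Pex7* 0.58 (adjusted p = 0.136).

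**Figure D4:**
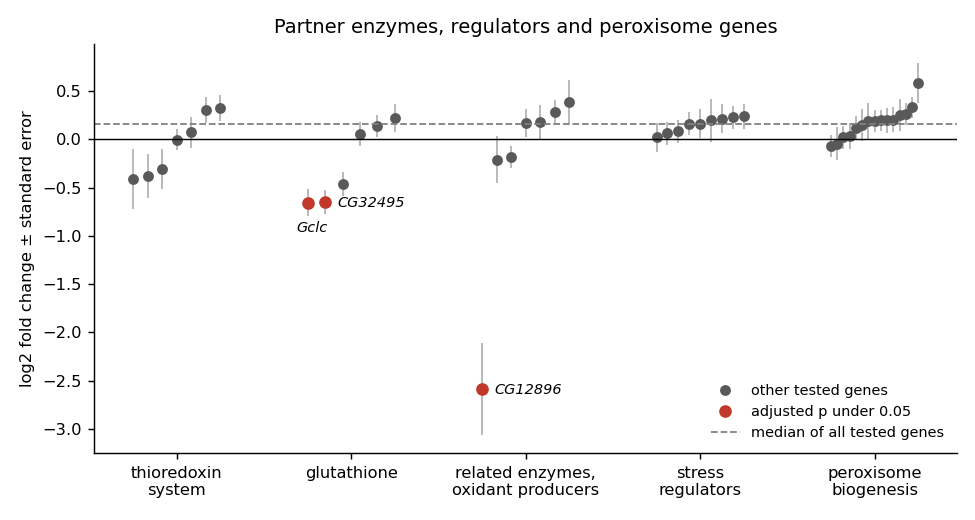
Log2 fold change between knockdown and control with its standard error (bars) for each tested gene in the 5 lists of partner enzymes, regulators and peroxisome genes, with lines at 0 and at the median of all tested genes (0.16). *Gclc*, *CG32495* and *CG12896*, in red, passed the adjusted p threshold, and most other genes lie near the median.

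The genes whose pattern was most like that of the *Prx2540* sum were *CG9826* (r = 0.996), *CG11825* (r = 0.996), *betaTry* (r = 0.995), *CG14196* (r = 0.993) and *Cpr49Ah* (r = 0.993), by Pearson's r of log2 values over the 6 libraries. This is a description over libraries that share the contrast between the groups, and 69 of the 9976 other tested genes had an r above 0.95. *betaTry*, a digestive protease of the midgut, was at 399.67, 258.29 and 330.97 FPKM in the control against 69.32, 72.86 and 69.59 FPKM in the knockdown, a log2 fold change of -2.20 (limma, adjusted p = 0.00146). *CG9826* had a log2 fold change of -1.19 (adjusted p = 0.00288), *Cpr49Ah*, a cuticle protein gene, -0.68 (adjusted p = 0.0141) and *CG14196* -0.42 (adjusted p = 0.0739).

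Some markers of the midgut, but not all, moved with the *Prx2540* sum. Of 9 midgut markers 4 fell, namely *betaTry*, *epsilonTry*, *Jon99Ci* and *Amy-p*, and none rose, with a median log2 fold change of -0.65, where 1.65% of all tested genes were called lower. *mex1* was at 231.53, 223.07 and 328.26 FPKM in the control against 334.99, 430.02 and 343.29 FPKM in the knockdown. Its knockdown libraries were thus all above the control, although the log2 fold change of 0.51 did not pass (unadjusted p = 0.0244, limma, adjusted p = 0.136). The log2 fold changes of *deltaTry*, *Mal-A1*, *alphaTry* and *Jon65Aiii*, which did not pass either, were -0.70, -0.21, -0.10 and -0.03. The summed midgut level ranged from 18742 to 27622 FPKM in the control and from 13263 to 17250 FPKM in the knockdown, and none of the markers was at 0 in every library. Salivary glue genes ranged from 8424 to 25402 FPKM in sum in the control and from 2771 to 9228 FPKM in the knockdown, with overlap. Their median was -1.57, although none of the 6 passed (limma, 3 at an unadjusted p under 0.05). *Sgs4* went the other way, at 0.44 (limma, adjusted p = 0.715). Of 7 fat body markers *Lsp1beta* rose and none fell (limma, 4 at an unadjusted p under 0.05), and the median was -0.09. The others went both ways and did not pass. *Lsp1alpha* had 1.21 and *Fbp2* 1.15, while *Fbp1* had -2.67, *Lsp1gamma* -0.52, *Lsp2* -0.12 and *apolpp* -0.09. None of 8 muscle, 7 hemocyte and 5 neuron markers passed (limma, 0, 3 and 3 at an unadjusted p under 0.05), with medians of 0.24, 0.41 and 0.30. Transcripts of all these tissues were thus present, as the label of whole larvae states. The unadjusted counts of the marker lists have no share of all tested genes beside them, since that share was not computed. Of 11 male germline markers 7 were under a mean of 0.5 FPKM. The list summed to between 14.75 and 20.32 FPKM in the control and between 22.22 and 26.78 FPKM in the knockdown. Most of that sum was *bol*, at 14.76, 8.86 and 15.88 FPKM in the control against 13.96, 19.02 and 21.22 FPKM in the knockdown. The groups of *bol* overlapped, and it did not pass (limma, adjusted p = 0.283). Of the 4 that could be tested *mia* rose and none fell. It was at 1.72, 1.77 and 1.53 FPKM in the control against 2.66, 2.63 and 2.53 FPKM in the knockdown, without overlap, and its log2 fold change was 0.61 (SE 0.15, limma, adjusted p = 0.0481). In whole larvae, fewer cells of a type and less RNA per cell cannot be told apart. The part of the midgut, salivary gland and germline markers in the values of *Prx2540* and of the glutathione genes was not tested.

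Under each of 17 alternative settings, 1 of the enzyme quantities was a DEG, and it was *Prx2540*, with *Prx2540-2* taking its place where the copies were kept apart. Wherever the copies were summed, the log2 fold change lay between -2.26 and -1.97.

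**Figure D5:**
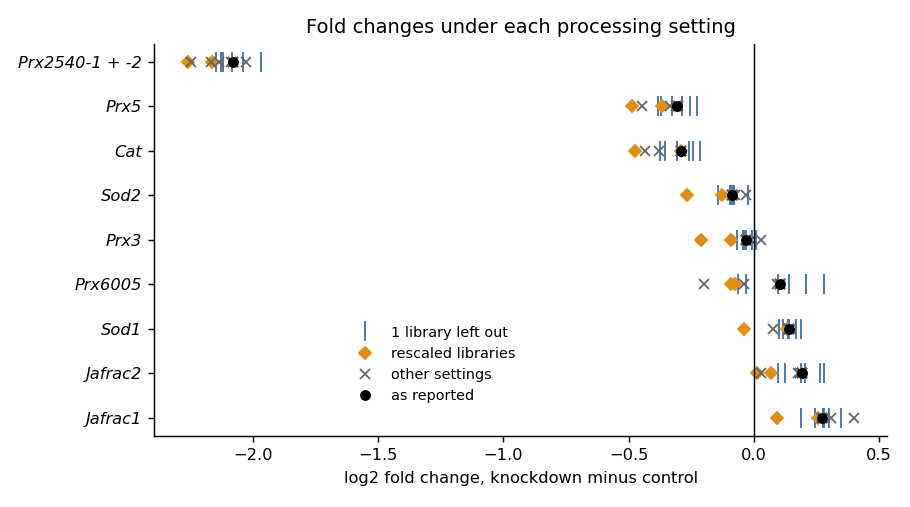
Log2 fold change of each enzyme gene as reported (black) and under every alternative except the copies kept apart, which is not shown. Marks are 1 library left out (blue ticks), rescaled libraries (orange diamonds) and other settings (crosses). *Prx2540* stays between -2.26 and -1.97, while *Prx3*, *Prx6005* and *Sod1* have values on either side of 0.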

How the data were processed

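The deposited table holds 1 FPKM value per gene in each of 6 libraries from whole female larvae, and every column was assigned to a condition by its name. To make these FPKM values the authors used SOAPnuke to filter paired reads of poly(A) RNA, HISAT2 for mapping and RSEM for quantification. Genome build and tool versions are not given in the sources used here. Submitters' processing notes also name StringTie, Cufflinks and GATK. FPKM values give no depth, so no counting interval was computed. Among 1674 genes of low level, the most frequent FPKM ratio between libraries lay between 0.953 and 1.05, with 55 to 90 of 163 to 275 genes within 5% of it.

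Genes with a mean of at least 0.5 FPKM (9977 rows) were fitted on log2(FPKM + 0.1) with limma (version 3.58.1, R 4.3.3), using trended, robust variance and Benjamini-Hochberg adjustment over all rows, which is not a count test. The script was tested on simulated data. Exact permutation tests of 3 against 3 libraries cannot go below p = 0.1. Tables were handled with pandas version 2.3.3.

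The BDGP6.54 annotation gave positions and current symbols for 13751 of 13858 gene IDs, matched through RefSeq. No sequence is shown.

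Members, gene lists and tests were chosen with earlier results of these data known. Named are all members, *Dctn1* and the 5 genes most like *Prx2540* by Pearson's r. Also named are listed genes past an adjusted p of 0.05, with up to 3 others per list. Neighbours of *Prx2540*, glutathione synthetase copies and further markers of midgut, fat body, salivary glue and male germline were added after their values were seen. Lists covered the thioredoxin system, glutathione synthesis and peroxidase, related enzymes and oxidant producers, stress response regulators, peroxisome biogenesis, and markers of fat body, midgut, muscle, hemocytes, neurons, salivary glue and male germline.

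Alternatives were pseudocounts of 1 and 0.01, no filter or a mean of at least 5 FPKM, median-of-ratios and quantile scaling, variance without trend and robustness, sample weights, a replicate block, each library left out, and the *Prx2540* copies apart or summed with *CG12896*.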

Additional observations from a re-analysis of the deposited data

How the results depend on the processing

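Leaving out each library in turn moved the *Prx2540* log2 fold change between -2.15 and -1.97 and left 1 enzyme called. With the copies kept apart, *Prx2540-1* alone had -1.92 (limma, adjusted p = 0.339). Estimated sample weights, which gave control replicate 2 a weight of 4.68 against 0.538 and 0.341 for the other control libraries, called 3 enzymes, the additional ones being *Jafrac1* at 0.40 and *Cat* at -0.38, and 6 listed partner genes against 3. Without single libraries 0 to 2 partner genes were called. *Prx6005* turned to -0.074 under median-of-ratios scaling, -0.091 under quantile normalization and -0.041 with sample weights, and ranged from -0.062 to 0.28 without single libraries. *Sod1* turned to -0.039 under median-of-ratios scaling, and *Prx3* ranged from -0.067 to 0.0066 without single libraries. *Gclc* also lost its call under either scaling (limma, adjusted p = 0.0520 and 0.0607). Genes past an adjusted p of 0.05 numbered 670, with 265 to 457 when 1 library was left out, 321 and 315 under median-of-ratios and quantile scaling and 1764 with sample weights. DEGs were 108 lower and 182 higher, and 120 lower and 113 higher under median-of-ratios scaling. Replicate numbers 2 and 3 occur in both groups, but with only 2 shared numbers, whose deviations correlated at 0.40 and 0.14 while control replicate 3 and knockdown replicate 1 reached 0.63, pairing was not established. Replicate 1 occurs only in the knockdown and replicate 4 only in the control. The difference fitted with a replicate block therefore rests on replicates 2 and 3 alone. With this block, *Prx2540* was at -2.17 (SE 0.13, limma, adjusted p = 0.0166) and 633 genes were called. *Prx6005* turned to -0.20 and *Prx3* to 0.030, and *Gclc* and *CG32495* lost their calls (limma, adjusted p = 0.0792 and 0.0631). FPKM values without counts leave the counting error of low genes such as *Prx2540-1* unknown.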

Other observations

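Other genes that the deposited table marks with antioxidant or peroxidase activity included the glutathione transferases *GstD2*, *GstD8* and *GstS1*, which conjugate or reduce compounds with glutathione. *GstD2* was at 2.65, 1.83 and 2.74 FPKM in the control against 15.51, 19.20 and 8.81 FPKM in the knockdown. Every knockdown library was above every control library, and *GstD2* rose by 2.49 on the log2 scale (SE 0.30, limma, adjusted p = 0.00572), opposite in sign to *Gclc* and the glutathione synthetase copies. *GstD8* was at 2.29, 0.96 and 1.36 FPKM in the control against 4.17, 4.79 and 2.67 FPKM in the knockdown, also without overlap, with a log2 fold change of 1.32 (SE 0.33, adjusted p = 0.0596) that did not pass. *GstS1*, far more abundant at 102 ± 12.6 and 109 ± 4.72 FPKM (SD, n = 3 each), had overlapping groups and a log2 fold change of 0.10. Reads may be shared among the neighbouring *GstD* copies. *CG9314*, a catalase-like gene, was listed at 0.25, 0.30 and 0.17 FPKM in the control against 0.10, 0 and 0.07 FPKM in the knockdown, too low to be tested. These genes were chosen after their values were seen.

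A further peroxiredoxin gene, *CG6888* (*Prx1* in the annotation), was listed at 0 in every library except knockdown replicate 1, where it had 0.05 FPKM.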
